A study of Mus musculus with 58 samples.

Results

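The GABA rho and GABA-B receptor genes were represented by 3 CpGs of the 382 on a custom Illumina GoldenGate methylation array, the CpGs whose gene names begin with Gabrr or Gabbr: Gabrr1, Gabbr1 and Gabbr2. Each belongs to a different gene, of 381 genes on the array. The array compares signal from the methylated form of a CpG with that from its unmethylated form in bisulphite-converted genomic DNA, which gives a beta value, running from 0 with no methylated signal to 1 with methylated signal only. Methylation was measured in mouse brain samples. In 4 of them, 3 of frontal cortex (FC_3TG) and 1 of CA1 (CA1_3TG), the genotype is labelled 3TG, which the labels do not expand, on a C57BL/6-129 background. The other 53 samples came from 11 regions of C57BL/6 mice labelled healthy or, for frontal cortex, WT. They were 5 of thalamus (TH), 6 of substantia nigra (SN), 4 of Purkinje cells (PC), 5 of hypothalamus (HYP), 5 of globus pallidus (GP), 6 of the granular cell layer (GCL), 5 of the dentate gyrus (DG), 6 of caudate-putamen (CPU), 4 of CA3, 5 of the basolateral amygdala (BLA) and 2 of frontal cortex (FC_WT). The sources used here give no ages. Whether a group holds 1 animal or several is not stated, so the tests speak of the spread among these samples only, and the number of arrays limits the precision.

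GABA is the main inhibitory transmitter of the mature brain. The product of Gabrr1 belongs to a family of subunits that form GABA-gated chloride channels known above all from bipolar cells of the retina. GABA-B receptors are G-protein-coupled receptors that act more slowly, lowering transmitter release and opening potassium channels, and they work as pairs of unlike subunits: Gabbr1 encodes the subunit that binds GABA and Gabbr2 the subunit that brings the pair to the cell surface and couples it to the G protein. Methylation of CpG-rich gene starts is generally low in tissues, while CpGs outside them are mostly methylated.

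In the mouse genome (GRCm38.p6, RefSeq), Gabrr1 lies at chr4:33132556-33163588 on the plus strand, Gabbr1 at chr17:37045966-37074305 on the plus strand and Gabbr2 at chr4:46662318-46991714 on the minus strand. The array names its 3 CpGs with the numbers 729, 423 and 677, which the sources used here explain no further, and they give no position for a CpG, so whether a CpG is exonic, intronic or upstream is not known. The starts of all 3 genes, from 250 bases before to 50 after the annotated start, are shown because they differ widely in their content of CpGs, which are in capitals; the measured CpG need not lie within them.
Gabrr1 (chr4:33132306-33132605, plus strand): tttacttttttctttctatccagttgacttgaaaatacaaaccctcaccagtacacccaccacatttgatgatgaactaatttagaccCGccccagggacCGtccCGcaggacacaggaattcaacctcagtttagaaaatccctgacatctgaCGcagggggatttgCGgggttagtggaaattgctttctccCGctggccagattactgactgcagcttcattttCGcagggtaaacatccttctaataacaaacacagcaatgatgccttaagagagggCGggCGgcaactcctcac
Gabbr1 (chr17:37045716-37046015, plus strand): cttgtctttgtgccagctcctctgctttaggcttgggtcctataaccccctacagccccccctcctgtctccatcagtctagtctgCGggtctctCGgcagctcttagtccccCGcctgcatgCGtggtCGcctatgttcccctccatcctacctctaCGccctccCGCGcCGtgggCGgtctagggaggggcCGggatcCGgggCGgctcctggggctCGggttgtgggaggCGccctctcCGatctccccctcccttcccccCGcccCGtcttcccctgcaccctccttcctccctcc
Gabbr2 (chr4:46991665-46991964, minus strand): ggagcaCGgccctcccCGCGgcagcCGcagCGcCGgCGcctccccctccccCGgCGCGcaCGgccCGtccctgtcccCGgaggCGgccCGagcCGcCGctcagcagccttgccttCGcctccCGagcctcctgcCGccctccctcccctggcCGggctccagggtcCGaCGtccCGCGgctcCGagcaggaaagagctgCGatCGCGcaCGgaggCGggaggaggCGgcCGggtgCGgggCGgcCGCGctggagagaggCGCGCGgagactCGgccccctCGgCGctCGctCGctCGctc
The motif counted was CG, which reads the same on both strands. It occurred 9 times in the Gabrr1 window, 18 times in that of Gabbr1 and 46 times in that of Gabbr2, whose G and C content was 80.3%. Of 32851 such windows of the RefSeq table, 94.6% held at least 1 CG, and the median window held 7. As many as in Gabbr2 or more were found in 1.65% of windows, against 29.7% for Gabbr1 and 45.8% for Gabrr1.

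The 3 CpGs had distinct ranges of methylation. Gabrr1 was highly methylated in every region, with a lowest value of 0.423, a median of 0.750 and a highest of 0.854 over the 53 samples. Gabbr1 was low throughout, between 0.0630 and 0.165 with a median of 0.0920. Gabbr2 was low in most samples, with a median of 0.0613, but reached 0.410, and 6 of the 53 samples lay above 0.2. The pooled standard deviation of beta within regions was 0.0822 for Gabbr2 and 0.0631 for Gabrr1, ranks 16 and 26 from the widest of all 382 CpGs, and 0.0177 for Gabbr1, near the median over all CpGs of 0.0184.

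**Figure D1:**
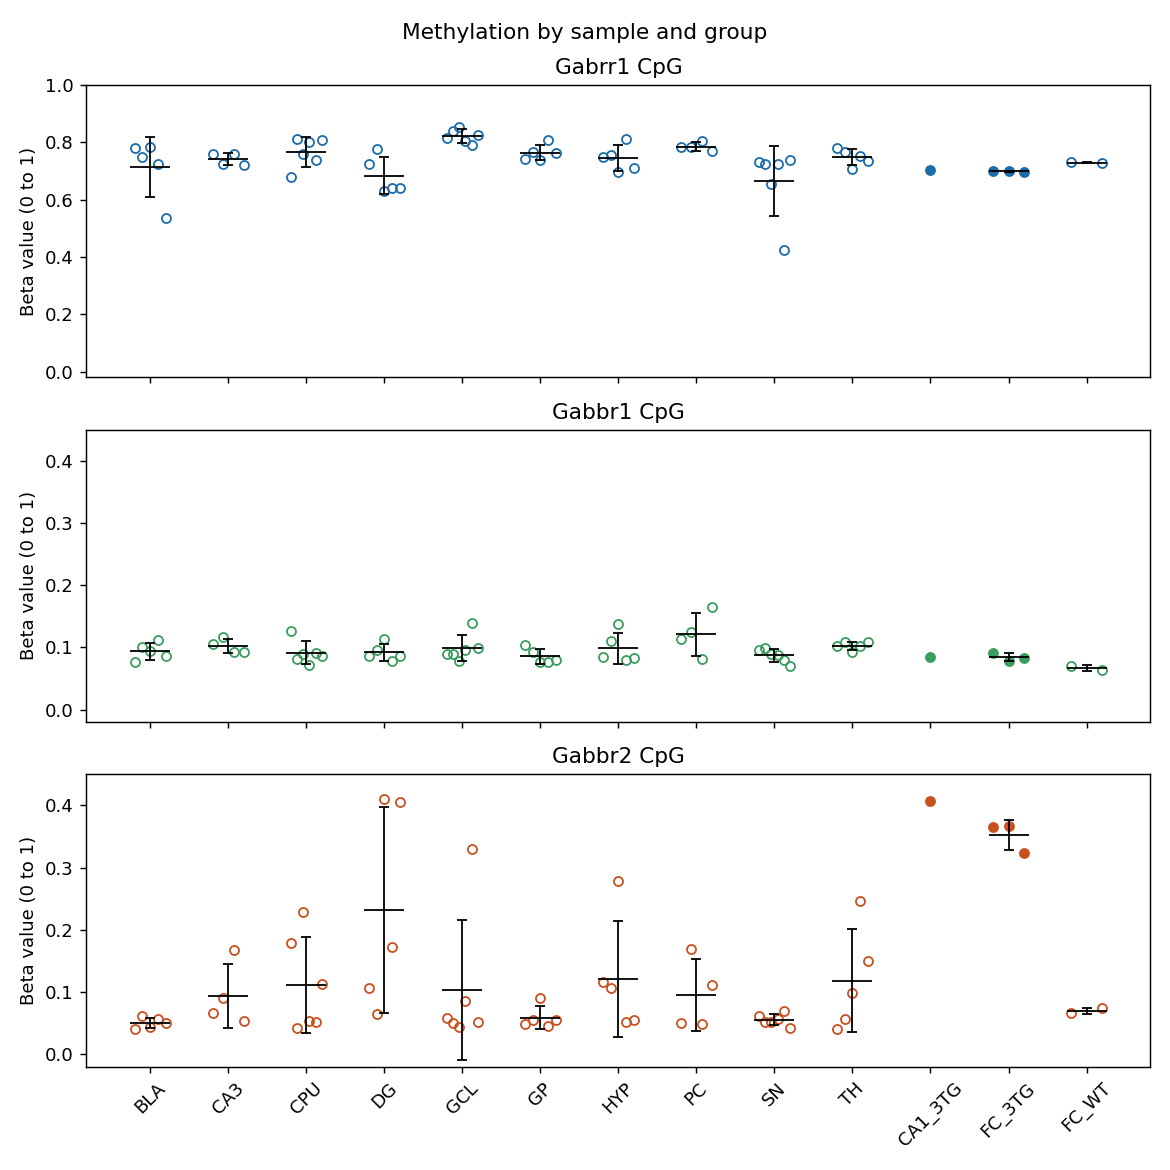
Beta values (vertical axes, 0 to 1, with a narrower scale for Gabbr1 and Gabbr2) of the 3 CpGs by group, 1 point per sample, filled for 3TG; horizontal ticks and bars give the mean and SD. Gabrr1 is high with lone low samples in SN and BLA, Gabbr1 is low in every group, and Gabbr2 is low in most samples with scattered high ones and 4 high 3TG samples.

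Methylation of Gabrr1 differed between regions, highest in GCL and lowest in SN and DG. In GCL the 6 samples were at 0.791, 0.803, 0.815, 0.826, 0.840 and 0.854, a mean of 0.822 ± 0.0234 (SD, n = 6), where the mean of the other regions was 0.734. In SN they were at 0.423, 0.653, 0.725, 0.725, 0.730 and 0.738, a mean of 0.666 ± 0.123 (SD, n = 6), with 0.750 for the mean of the other regions. The GCL and SN samples did not overlap, but these regions were picked for having the highest and lowest means. The share of all CpGs at which such regions do not overlap is not given here.

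The remaining region means of Gabrr1 formed a gradual order below GCL: PC at 0.785, CPU at 0.766, GP at 0.764, TH at 0.748, HYP at 0.745, CA3 at 0.741, FC_WT at 0.729, BLA at 0.714 and DG at 0.683, with SN last. No region in this order passed the test against its next neighbour. Of the 55 pairs of regions 5 did (limma on log2(beta / (1 - beta)), Benjamini-Hochberg adjustment over all CpGs and pairs): GCL with SN (log2 difference 1.18, SE 0.238, adjusted p = 0.000227), DG with GCL, BLA with GCL, PC with SN and CPU with SN. Over all CpGs 14% of these pair tests passed, and 157 CpGs had more than 5 such pairs, so Gabrr1 was not unusual among them. The pairs with SN and with BLA include samples far below the rest of their region, SN M3 at 0.423 and BLA M4 at 0.534. These pair tests without those samples are not given here.

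Against the mean of the other 10 regions, a contrast made with limma in 1 fit over the 53 samples, GCL was higher at Gabrr1 (log2 difference 0.72, SE 0.180, adjusted p = 0.0014) and SN was lower (-0.58, SE 0.180, adjusted p = 0.0215). Of all 33 contrasts of the 3 CpGs 5 passed, against 15.9% of those over all CpGs; 8.12% of all CpGs were higher in GCL and 2.36% lower in SN. The Gabrr1 call in SN rested on SN M3, at 0.423: without it the log2 difference was -0.28 (adjusted p = 0.265). It was also lost without SN F4 (-0.55, adjusted p = 0.0570) and after centring the arrays on their medians (-0.52, adjusted p = 0.0813). The call in GCL held with each sample left out in turn, at log2 differences between 0.65 and 0.78.

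In DG the Gabrr1 values divided along a form of title. The samples titled WT-DG, whose codes are F7, F8 and F9, were at 0.631, 0.642 and 0.642, and the other DG samples, F3 and M2, at 0.723 and 0.778. The DG mean of 0.683 ± 0.0648 (SD, n = 5) against 0.748 for the other regions did not pass (log2 difference -0.47, adjusted p = 0.0731). FC_WT, whose titles share that form, was at 0.728 and 0.730 and thus above those 3 DG samples. By the F-test over all 11 regions Gabrr1 passed (F = 3.55, adjusted p = 0.00459), as did 44.5% of all CpGs, and it ranked 124 of 382 by that p.

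**Figure D2:**
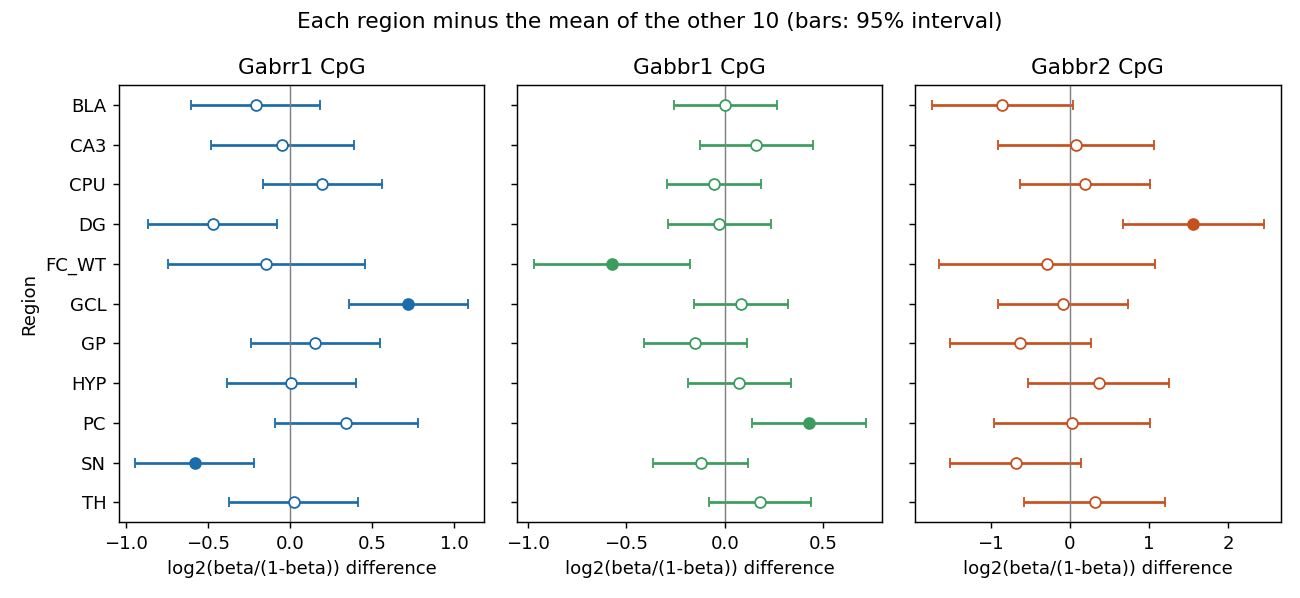
Difference of log2(beta / (1 - beta)) between each region and the mean of the other 10 (horizontal axes, scaled separately) for the 3 CpGs, with 95% intervals; filled points passed at an adjusted p under 0.05. The 5 filled points are GCL and SN for Gabrr1, PC and FC_WT for Gabbr1, and DG for Gabbr2.

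Gabbr1, the GABA-binding subunit gene, varied little. The highest mean was that of PC, where the 4 samples were at 0.0819, 0.114, 0.124 and 0.165, a mean of 0.121 ± 0.0345 (SD, n = 4), against 0.0919 for the other regions. The lowest was that of FC_WT, where the samples were at 0.0630 and 0.0703, a mean of 0.0667 ± 0.00516 (SD, n = 2), against 0.0974. The other 9 region means lay between 0.0858 in GP and 0.103 in TH, and the samples of these regions overlapped.

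PC was called higher at Gabbr1 (limma log2 difference 0.43, SE 0.143, adjusted p = 0.0151) and FC_WT lower (-0.57, SE 0.198, adjusted p = 0.0221), but both contrasts moved many CpGs: 34.8% of all were called higher in PC and 27.5% lower in FC_WT, and the median CpG of the array shifted by 0.20 in PC and by -0.19 in FC_WT on the log2 scale. Gabbr1 levels were also set beside a property of the whole array. Over the 53 samples they correlated with the first quartile of beta of the array at r = 0.775 (rho = 0.576), a description in which each pair of values shares an array. For Gabbr2 r was 0.278 and rho, by ranks, was near that of Gabbr1, at 0.548. For Gabrr1 r was 0.0299 (rho = -0.148). Values for other CpGs are not given here, so the correlation is not shown to be particular to Gabbr1. PC M3 and PC F2 had the highest first quartiles of all samples, at 0.0995 and 0.0759, and FC_WT 1_a the lowest, at 0.0456. The other samples of these groups were less extreme. PC F1 and PC F4 had first quartiles of 0.0555 and 0.0543, with Gabbr1 at 0.114 and 0.0819. FC_WT 3 had 0.0568, yet its Gabbr1 value of 0.0630 was below the 0.0703 of FC_WT 1_a. The part of the first quartile in the regional calls was not tested.

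Without PC M3 the Gabbr1 difference in PC was 0.24 (adjusted p = 0.302), without PC F2 0.40 (adjusted p = 0.0619), and without both 0.10, a setting picked once their values were known, which did not pass. The PC call was kept with quantile normalization, after centring the arrays on their medians and on untransformed beta. The FC_WT call was lost with quantile normalization (-0.32, adjusted p = 0.0697), after centring the arrays on their medians (-0.27, adjusted p = 0.138), on untransformed beta (adjusted p = 0.0625) and without either FC_WT sample. Of the 55 pairs 3 passed at Gabbr1: FC_WT with PC, FC_WT with TH and GP with PC. By the F-test over all regions Gabbr1 did not pass (F = 2.11, unadjusted p = 0.0424, adjusted p = 0.0824); it did without PC F4, CPU F1 or HYP F4 (adjusted p = 0.0137, 0.0392 and 0.0482).

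Gabbr2, the G-protein-coupling subunit gene, was highest in DG, but through some of its samples. The DG samples F7, F8 and F9 were at 0.410, 0.172 and 0.406, and F3 and M2 at 0.106 and 0.0641, a mean of 0.232 ± 0.166 (SD, n = 5) against 0.0879 for the other regions. DG was called higher (limma log2 difference 1.56, SE 0.443, adjusted p = 0.00789), in a contrast with 7.85% of all CpGs called higher. Without DG F7 to F9, chosen after the data were seen, the difference was 0.14 (adjusted p = 0.971), and without FC_WT as well 0.13 (adjusted p = 0.972). Leaving out F7 or F9 alone gave 1.18 with either (adjusted p = 0.0709 and 0.0965).

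Not every sample of that title form was high at Gabbr2: FC_WT was at 0.0663 and 0.0736. High values also lay scattered over other regions: GCL M3 was at 0.330 while the other GCL samples reached at most 0.0860, HYP F4 was at 0.279, TH M3 at 0.246 and CPU F4 at 0.228. BLA and SN held no sample above 0.0702, with means of 0.0505 ± 0.00848 (SD, n = 5) and 0.0558 ± 0.00941 (SD, n = 6).

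The order of the Gabbr2 means below DG was HYP (0.121), TH (0.118), CPU (0.111), GCL (0.103), PC (0.0952), CA3 (0.0943), FC_WT (0.0700), GP (0.0590), SN (0.0558) and BLA (0.0505), and no neighbours in it passed the test of their difference. The pairs that passed were BLA with DG, DG with GP and DG with SN. By the F-test Gabbr2 did not pass (F = 2.08, unadjusted p = 0.0450, adjusted p = 0.0860); it did without GCL M3 (adjusted p = 0.0249) or DG M2 (adjusted p = 0.0234).

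The high values of Gabbr2 came with high values at a few other CpGs of the same arrays. The CpGs most like it over the 53 samples were Adcy9, an adenylate cyclase gene (r = 0.975, rho = 0.882), the kisspeptin receptor gene Kiss1r (r = 0.960, rho = 0.861) and the adenosine receptor gene Adora2b (r = 0.954, rho = 0.838). These are correlations of log2(beta / (1 - beta)) between CpGs read on the same arrays. In DG F7 Adcy9 was at 0.748 and Kiss1r at 0.582, and in GCL M3 at 0.533 and 0.562, whereas in DG M2 they were at 0.106 and 0.0785. After region means were subtracted, r was 0.966 with Adcy9, 0.972 with Kiss1r and 0.961 with Adora2b.

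In all, 7 of the other 381 CpGs correlated with Gabbr2 at r over 0.8, also Sctr, Mpv17, Gria1 and Hcrtr1, and 1 at r under -0.8, Uts2r (r = -0.819). Gabrr1 and Gabbr1 had none beyond either value. Among the CpGs most like Gabbr1 were Glrb (r = 0.743) and Thra (r = 0.737), both of low methylation, and those most like Gabrr1 were Ptger2 (r = 0.556), P2ry5 (r = 0.511) and Id1 (r = 0.50). For comparison, the median over all CpGs of the highest r with any other CpG was 0.786. Among the 3 receptor CpGs r was 0.420 between Gabbr1 and Gabbr2, -0.285 between Gabrr1 and Gabbr2 and -0.00116 between Gabrr1 and Gabbr1.

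Several of these CpGs, though not all, differed widely between the arrays that share the code CPU M4. These arrays are labelled M4_b and M4_a and were treated here as repeats of 1 sample, which their titles do not state. Gabbr2 was at 0.179 and 0.0452 on them, a difference that ranked 11 of 382 by size. The 4 widest differences were at Sctr, Kiss1r, Adcy9 and Gria1, all among the 7 CpGs most like Gabbr2: Adcy9 was at 0.399 and 0.117, Kiss1r at 0.338 and 0.0517, and Sctr at 0.503 and 0.0681. The other 3 of the 7 ranked lower, Hcrtr1 22, Adora2b 71 (0.106 and 0.0379) and Mpv17 178 (0.0559 and 0.0308). Gabrr1 was at 0.768 and 0.845 and Gabbr1 at 0.104 and 0.0697 on these arrays. The difference at Gabbr2 between these arrays was 0.134. Its SD within regions was 0.0822, which is a spread of single values and not of differences, so the numbers are not directly comparable. The regional values above use the mean of both arrays.

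**Figure D3:**
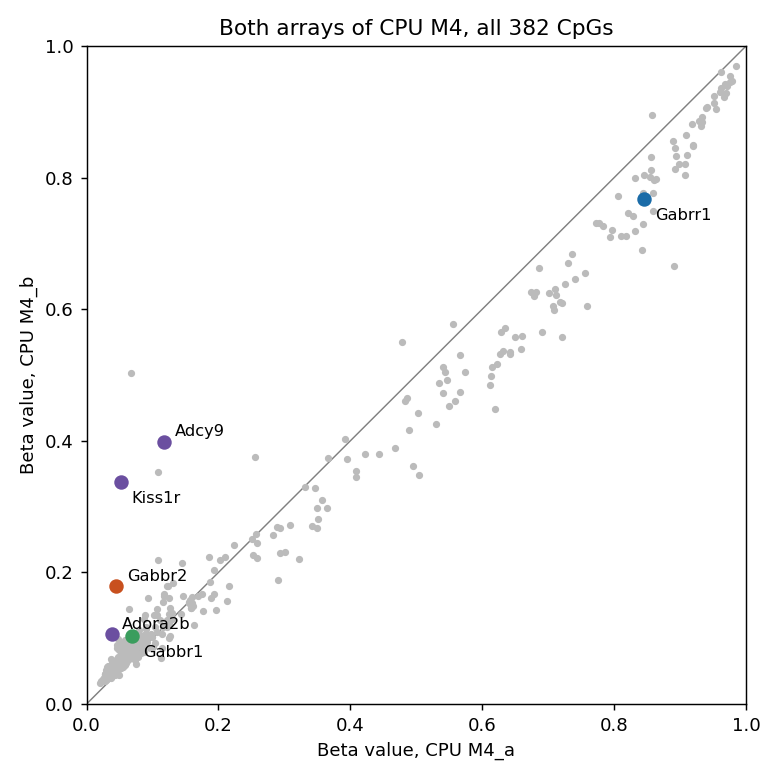
Beta values of all 382 CpGs on array M4_b (vertical) against M4_a (horizontal), which share the caudate-putamen code M4, with the line of equal values. Gabbr2 and the CpGs most like it, Adcy9, Kiss1r and Adora2b, lie above the line, while Gabrr1 lies below it.

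Frontal cortex of 3TG mice was compared with that of wild-type mice to ask whether the receptor CpGs differ with genotype. Gabbr2 had the widest difference of all 382 CpGs, on both the beta and the log2 scale. It was at 0.324, 0.365 and 0.367 in FC_3TG, against 0.0663 and 0.0736 in FC_WT, with means of 0.352 ± 0.0243 (SD, n = 3) and 0.0700 ± 0.00515 (SD, n = 2). Both sets were tight and far apart, and the 1 CA1_3TG array was at 0.407.

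The log2 difference at Gabbr2 was 2.85 (SE 0.838, 95% interval 1.17 to 4.54), ranked 6 by p, and missed the threshold in the fit over all 13 groups, where its spread is estimated over every region (limma, unadjusted p = 0.00134, adjusted p = 0.0855). It passed when the 5 frontal cortex samples were fitted by themselves (adjusted p = 7.35e-07), with quantile normalization (adjusted p = 0.0470) and on untransformed beta (adjusted p = 0.0273). The fit of 5 samples takes its spread from 3 FC_3TG and 2 FC_WT samples only. The share of all CpGs that passed in these settings is not given here, so they do not show whether Gabbr2 was exceptional in them. With median centring, a filter on mean beta, wider limits, robust variances or a frontal cortex sample left out, the adjusted p lay between 0.0641 and 0.512, at log2 differences of 2.77 to 2.94 with a sample left out.

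The CpGs most like Gabbr2 across regions were at similar levels in both groups. Adcy9 was at 0.151, 0.156 and 0.160 in FC_3TG, against 0.144 and 0.191 in FC_WT, Kiss1r averaged 0.0712 and 0.0685, and Adora2b 0.0437 and 0.0396. Over the 7 CpGs with r over 0.8 the difference in mean beta ran from -0.0120 to 0.00411. In CA1_3TG, where Gabbr2 was at 0.407, Adcy9 was at 0.197 and Kiss1r at 0.0962; in DG F9, with Gabbr2 at 0.406, they were at 0.619 and 0.384.

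**Figure D4:**
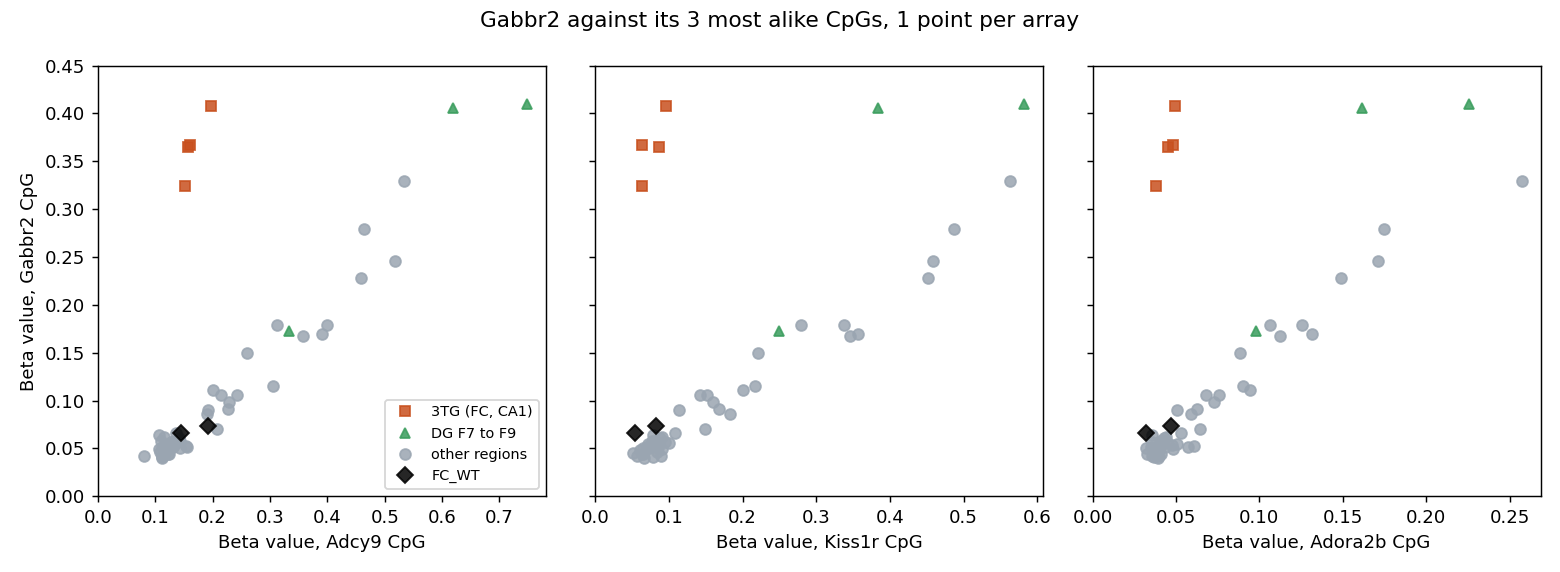
Gabbr2 beta (vertical) against beta of Adcy9, Kiss1r and Adora2b (horizontal), 1 point per array. The wild-type arrays, DG F7 to F9 among them, lie along a rising band, and the 4 arrays of 3TG mice lie apart from it, with Gabbr2 between 0.324 and 0.407 at low values of the other CpGs.

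Genotype and genetic background cannot be told apart here, since FC_3TG is labelled C57BL/6-129 and FC_WT C57BL/6. At the other receptor genes the differences were smaller. Gabrr1 was at 0.698, 0.698 and 0.700 in FC_3TG, against 0.728 and 0.730 in FC_WT (log2 difference -0.21, 95% interval -0.96 to 0.53, limma unadjusted p = 0.563). Gabbr1 was at 0.0782, 0.0823 and 0.0908 in FC_3TG, against 0.0630 and 0.0703 (log2 difference 0.36, 95% interval -0.14 to 0.85, limma unadjusted p = 0.154). The groups did not overlap at any of the 3 CpGs, as at 29.8% of all CpGs. By limma 0 of the 3 passed at an adjusted p under 0.05 (1 at an unadjusted p under 0.05, Gabbr2), where 1.31% of all CpGs passed after adjustment and 23 of the 382 had an unadjusted p under 0.05. Means of cell type markers differed in both directions, with no test made of the lists: of 12 marker CpGs on the array 7 had a lower mean in FC_3TG than in FC_WT and 5 a higher one. Of the astrocyte genes, Gfap averaged 0.628 in FC_3TG and 0.740 in FC_WT, and Slc1a3 0.154 and 0.145. Of the 6 oligodendrocyte CpGs 5 were lower, such as Mbp at 0.0449 in FC_3TG and 0.0493 in FC_WT, and Gal3st1 was higher, at 0.125 and 0.110. Methylation of such genes is no measure of cell numbers, and the part of cell composition in these values was not tested.

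Samples whose codes begin with F or M, a letter the labels do not explain, gave no call at the receptor CpGs. Over 51 samples with region as a covariate, Gabrr1 averaged 0.746 in F-coded and 0.740 in M-coded samples (log2 difference 0.05, 95% interval -0.19 to 0.30), Gabbr1 0.0977 and 0.0950 (0.05, -0.12 to 0.21) and Gabbr2 0.114 and 0.0914 (0.05, -0.50 to 0.60). By limma 0 of 3 passed, 0 also at an unadjusted p under 0.05, where 3.93% of all CpGs passed after adjustment.

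The other GABA receptor genes gave the setting. Of 38 listed genes of GABA receptors, synthesis, transport and receptor scaffolds, 15 had a CpG on the array, all of them GABA-A receptor subunits. Between regions 6 of the 15 differed by the F-test, against 170 of all 382 CpGs (44.5%), among them Gabra6, Gabrp, Gabra2, Gabrb1 and Gabra4. Gabra6, a subunit of cerebellar granule cells, ran from 0.237 in GCL to 0.580 in FC_WT, and Gabrp from 0.561 in GCL to 0.782 in FC_WT, so that GCL was the lowest region at both, whereas it was the highest at Gabrr1.

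The CpGs of Gabra4 and Gabrb1 had, like Gabbr1, their lowest mean in FC_WT and their highest in PC: Gabra4 was at 0.125 in PC and 0.0715 in FC_WT, and Gabrb1 at 0.183 and 0.0775. Gabra2 ran from 0.144 in FC_WT to 0.238 in GCL. The median over the 15 CpGs of the range between region means was 0.0537, against 0.0496 over all CpGs, with 0.156 for Gabrr1, 0.0546 for Gabbr1 and 0.181 for Gabbr2. Between 3TG and wild-type frontal cortex 0 of the 15 passed by limma, and the median log2 difference was -0.08, against -0.01 over all CpGs.

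**Figure D5:**
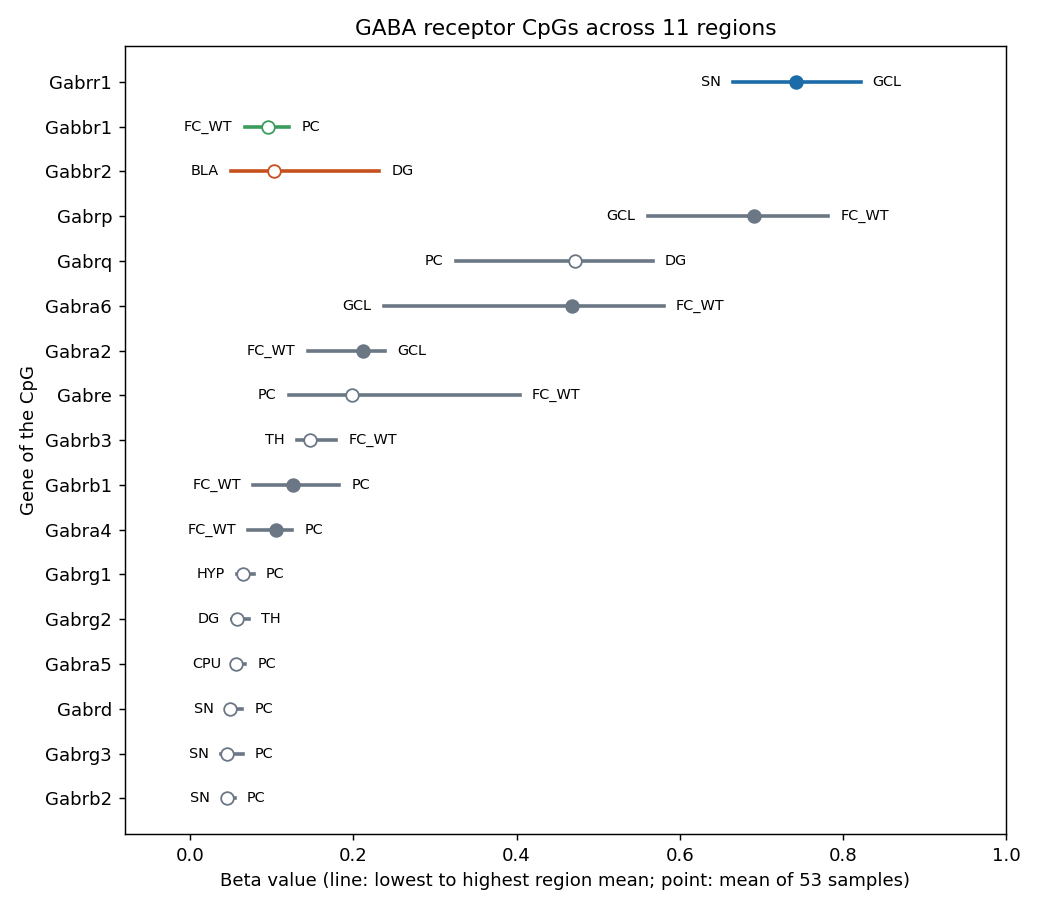
Range of region means (lines, with the lowest and highest region named) and mean over 53 samples (points, filled where the F-test passed) of beta at the 3 receptor CpGs and at GABA-A subunit CpGs. Gabrr1 is the most methylated of those drawn by its mean, at 0.743, and Gabbr2 has a wider range than Gabbr1.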

How the data were processed

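Values are the beta values the authors deposited, each a fraction between 0 and 1 (382 CpGs on 58 arrays, 0 missing). Per the labels' protocols and design text, phenol-extracted, bisulphite-converted DNA was hybridised to the array with Cy3 and Cy5; scanner software, background correction, normalization, genome build: not given in the sources used here. Groups follow the tissue and genotype labels. Both CPU M4 arrays were averaged as 1 sample. Tests used R 4.3.3 and limma 3.58.1. Beta was kept within 0.01 and 0.99, turned into log2(beta / (1 - beta)) and fitted on all 382 CpGs with Benjamini-Hochberg adjustment, at an adjusted p under 0.05: an F-test over 11 regions, each region against the average of the other 10 region means, all 55 pairs, FC_3TG minus FC_WT in a fit of all 13 groups, and F-coded minus M-coded samples with region as a covariate. The fits were tested on simulated data with independent normal errors for each CpG and sample. Such data leave out likeness between same-coded samples or between CpGs, and lone outlying samples. Promoter windows come from RefSeq (GRCm38.p6); all 3 genes matched by symbol. Named genes are the members, the 3 CpGs most correlated with each, those of the GABA list past the F-test, and markers, some of which are not reported here; Sctr, Mpv17, Gria1, Hcrtr1 and Uts2r were named after their values were seen. The members and lists were chosen with earlier results of these data known. Alternatives tried were untransformed beta, quantile normalization, centring, a filter on mean beta, wider limits, robust variances, blocks, covariates and left-out samples.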

Additional observations from a re-analysis of the deposited data

Results flagged for a closer look

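The 3 CpGs were each combined with the regions of 4 to 6 samples, which gave 30 combinations. In 7 of them 1 sample lay far from the rest, by its gap to the nearest sample relative to the range. Chance flags about 1 in 20 such groups where values are normally distributed, and the CpGs share arrays. The rule was applied to beta, which was skewed at Gabbr2 (median 0.0613, highest 0.410, over 53 samples), so that rate need not hold. At Gabrr1 the flagged samples were SN M3, at 0.423 with the next sample at 0.653, and BLA M4, at 0.534 with the next at 0.723. At Gabbr1 they were CPU F1, at 0.126 with the next at 0.0916, and GCL M3, at 0.140 with the next at 0.0990. At Gabbr2 they were GCL M3, at 0.330 with the next at 0.0860, HYP F4, at 0.279 with the next at 0.115, and GP F2, at 0.0909 with the next at 0.0554. GCL M3 thus stood apart at both GABA-B CpGs, and it was the lowest GCL sample at Gabrr1, at 0.791.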

How the results depend on the processing

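Of the 3 receptor CpGs, 1 passed the regional F-test (Gabrr1), 5 of 33 region contrasts and 11 of 165 pair tests passed, and 0 passed for 3TG or for the code letter. With untransformed beta, quantile normalization or the 5 frontal cortex samples alone, 1 CpG, Gabbr2, passed for 3TG. The share of all CpGs that passed for 3TG in these settings is not given here, so Gabbr2 is not shown to be exceptional in them. Region contrasts fell to 3 with arrays centred on their median and to 3 without the samples titled WT. Pair tests numbered 18 with quantile normalization, 3 without the samples titled WT and 6 without DG F7 to F9. Leaving out the samples titled WT removes FC_WT. Its contrast and pairs, among them the Gabbr1 calls of FC_WT, of FC_WT with PC and of FC_WT with TH, could then not be made. Part of the fall in that setting was thus fixed in advance. An array covariate made of the CpGs most like Gabbr2 was added after the data were seen and chosen for its correlation with Gabbr2 in these samples, so its tests at Gabbr2 are void; its counts were 2 for the F-test, 19 for pair tests and 1 for 3TG, and nothing rests on them. With 1 sample left out the F-test gave 1 to 2, region contrasts 4 to 6, pair tests 8 to 18, 3TG 0 and the code letter 0; the pair tests numbered 18 without DG M2 and 17 without PC F4. Replicate codes recur between regions. Of 149 same-coded pairs 116, not all, had deviations correlated over 0.1 (median 0.33), against 418 of 1121 other pairs (median -0.06). For 18 of 53 samples the most alike sample of another region had the same code. Same-coded samples were thus more alike than others, but the labels do not say what the codes mark, and they were not taken as pairs. The regional tests treat same-coded samples as independent, and their p-values make no allowance for such likeness. A random replicate block gave 1, 5, 12 and 0 for the F-test, region contrasts, pair tests and code letter. A fixed replicate block, without FC_WT, gave 1, 2 and 3, with the Gabbr1 call in PC (0.33, limma adjusted p = 0.106) and the Gabbr2 call in DG (1.14, adjusted p = 0.993) lost; the codes F7, F8 and F9 occur in DG alone, so this block leaves those samples out of the DG contrast. FC_WT was absent from this block and from the fit with the code letter as a covariate, so its contrast and pairs could not be called in either. The cause of the other changes was not tested. The filter on mean beta, wider limits, robust variances, the code letter as a covariate, either CPU M4 array alone and leaving out PC F2 and M3 kept each of these counts within 1.5 times. Signal over background was not used here.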
